A study of Mus musculus with 10 samples.

Results

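Serine proteases and protease inhibitors expressed in mouse back skin keratinocytes were described as 1 group of 42 genes, among the 15987 genes listed in all 10 libraries. Members were chosen by gene symbol: those beginning with Klk or Serpinb and a digit, with Spink, Wfdc or Tmprss, and the single genes St14, Prss8, Cst6 and Slpi. They were 18 proteases (9 Klk, 7 Tmprss, St14 and Prss8) and 24 inhibitors (14 Serpinb, 2 Spink, 6 Wfdc, Cst6 and Slpi). The GENCODE annotation of GRCm38 holds 104 protein-coding genes that match the symbols. Another 5 members were listed in only some of the libraries, 58 annotated genes were not analysed here, and 1 member, Serpinb10, is annotated as a polymorphic pseudogene.

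Kallikreins (Klk) are secreted serine proteases of the upper epidermis that cut the desmosomal proteins holding corneocytes together, and they activate one another in a cascade. St14 encodes matriptase and Prss8 prostasin, membrane-bound proteases that act together in building the barrier, and the Tmprss genes encode their transmembrane relatives. The cascade is held back by Spink5 (LEKTI), whose loss in people causes Netherton syndrome, a disease of skin shedding and inflammation. Most Serpinb genes encode serpins that stay within the cell and trap proteases irreversibly, and Wfdc proteins and Slpi carry a small inhibitor domain. Cst6 (cystatin M/E) stands apart because its targets are cysteine proteases of cornification.

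The controls carried the label wild type. The knockouts carried Gsdma1KO/KO;Gsdma3fx/fx;K14-Cre, a whole-body Gsdma1 deletion with floxed Gsdma3 cut by a Cre that the K14 promoter drives in keratinocytes. Back skin was rubbed 2 times a day for 3 days with acetone and olive oil (4 parts to 1), which disturbs the barrier, or with water, and epidermal keratinocytes were taken on day 5 after dispase and trypsin. There were 3 control and 3 knockout libraries under olive oil/acetone, and 2 control and 2 knockout libraries under water. Whether each library came from its own animal is not in the labels, so the p-values reflect a spread among libraries that could be technical.

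Depth was 15914663 to 21812292 reads per library, and levels below are normalised read counts, given in the order of the replicate numbers. Gsdma3 lay at 62.5 to 283 in controls and at 0 to 2.65 in knockouts. Gsdma, which the labels call Gsdma1, lay at 200 to 732 in controls and 170 to 843 in knockouts, so its counts did not separate the genotypes. Keratin and other markers of basal (6 of 6) and of spinous and granular keratinocytes (8 of 8) were listed in every library. Hair shaft and sheath markers (10 of 12 listed) set 2 libraries apart. The sum of 9 of them (without Gata3, which keratinocytes also express) was 11537 in control water replicate 2 and 2580 in knockout olive oil/acetone replicate 2, against 130 to 836 in the other 8. In the knockout this sum was higher in every olive oil/acetone library (321, 2580 and 836) than under water (197 and 217). In controls it overlapped. The knockout difference remains when the 2 libraries are left out, and its part in the members' levels was not tested. All 4 Y-linked genes were at 0 in all 4 water libraries and summed to 3583 to 4967 in the 6 olive oil/acetone libraries, so the treatment and the presence of Y-linked transcripts cannot be told apart. In bulk RNA, fewer cells of a type and less RNA per cell cannot be told apart either.

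Promoter sequence is shown for 4 members that carry the results below: Klk13, the kallikrein with the lowest adjusted p for treatment, Klk7, the protease with the highest level, and the inhibitors Serpinb3a and Serpinb2. RefSeq start sites on GRCm38.p6 were found for 31 of 42 members (39 windows of 250 bases before a start). Each line gives the 130 bases before the start, 5′ to 3′ on the gene's strand, from chr7:43712437-43712566 (+, Klk13), chr7:43811164-43811293 (+, Klk7), chr1:107052304-107052433 (-, Serpinb3a) and chr1:107511293-107511422 (+, Serpinb2). None of these stretches holds an annotated exon. Capitals mark matches to TATAAA (the TATA box, gene's strand), TGANTCA (AP-1, both strands) or CACCC (both strands, GGGTG when reversed).
Klk13: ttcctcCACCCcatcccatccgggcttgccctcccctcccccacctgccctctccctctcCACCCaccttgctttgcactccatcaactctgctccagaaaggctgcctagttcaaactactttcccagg
Klk7: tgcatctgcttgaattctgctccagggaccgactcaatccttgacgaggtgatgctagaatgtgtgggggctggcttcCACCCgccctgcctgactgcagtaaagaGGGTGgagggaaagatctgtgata
Serpinb3a: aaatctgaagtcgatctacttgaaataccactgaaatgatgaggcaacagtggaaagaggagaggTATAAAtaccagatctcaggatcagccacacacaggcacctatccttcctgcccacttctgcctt
Serpinb2: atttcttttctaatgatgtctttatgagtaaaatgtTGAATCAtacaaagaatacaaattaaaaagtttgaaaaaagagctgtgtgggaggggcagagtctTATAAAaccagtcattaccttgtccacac
Both kallikrein stretches hold 2 CACCC matches and no TATAAA. Serpinb3a has TATAAA 65 bases before its start, and Serpinb2 has TATAAA at 29 and TGAATCA at 94 bases. TATAAA was in 0 of 14 protease windows and 7 of 25 inhibitor windows, against 7.59% of all 32851 promoters. TGANTCA was in 1 of 14 and 8 of 25, against 6.75%, and CACCC in 10 of 14 and 16 of 25, against 52.0%. Windows of the same gene can overlap: the 2 Serpinb2 windows share bases, and both count the same TATAAA and the same TGANTCA. All of these are matches of letters and were not tested as sites.

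Levels per kilobase of exon, averaged over the 10 libraries, were led by inhibitors. Serpinb2, the serpin that blocks urokinase, came first at 36159.9 normalised counts per kilobase. Serpinb5 (maspin, a serpin without protease-trapping activity) followed at 4442 and Cst6 at 3944. Klk7, a chymotrypsin-like kallikrein that cuts corneodesmosomes, was the highest protease at 2443, and Spink5 stood at 1310.4. Below them came Klk11 at 908, Tmprss4 at 789, Klk5 at 626 and Klk8 at 622, and the lowest member was Tmprss9 at 1.97. The heat map gives every member in every library.

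**Figure D1:**
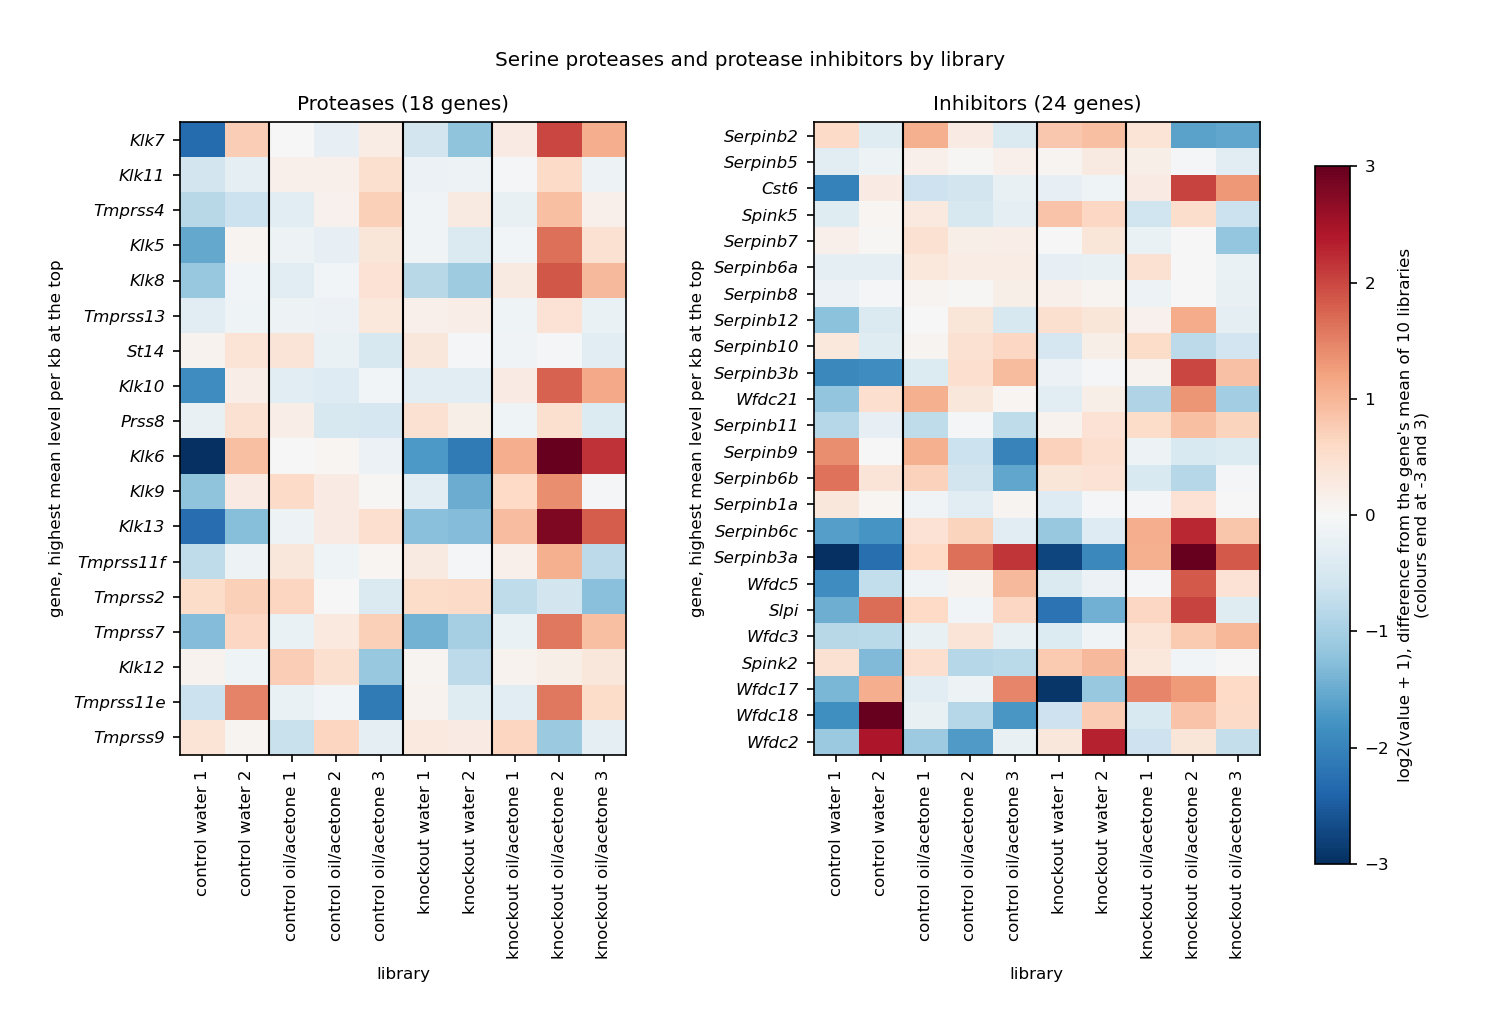
Each row is a member and each column a library; colour is log2(normalised count + 1) minus the gene's mean over the 10 libraries, and black lines part the groups. In the protease panel most Klk rows are reddest in knockout olive oil/acetone replicate 2 and bluest in control water replicate 1, with Klk6 running from 15.4 to 1673.

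In the knockout, 8 of the 42 members passed an adjusted p of 0.05 for olive oil/acetone against water, groups that also differed in Y-linked transcripts. Among them 3 kallikreins rose (Klk13, Klk6 and Klk8), 4 inhibitors rose (Serpinb3a, Serpinb6c, Wfdc17 and Wfdc3) and 1 membrane protease fell (Tmprss2). Differences were tested with limma on log2(normalised count + 1) and adjusted by the Benjamini-Hochberg method over all 15958 genes tested. The background was high: 13.4% of all genes were called, 6.74% as higher and 6.69% as lower. The members' share was 4 of 18 proteases and 4 of 24 inhibitors. At an unadjusted p under 0.05 there were 16 members, against 35% of all genes.

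Klk6, a trypsin-like kallikrein, was at 52.9 and 40.1 in the knockout under water and at 381, 1673 and 794 under olive oil/acetone. Its lowest treated library was above both water libraries, and the log2 difference was 4.08 ± 0.98 (SE, adjusted p = 0.0296, limma). Klk13 read 26.5 and 25.5 under water and 123, 455 and 230.2 under olive oil/acetone, a log2 difference of 3.13 ± 0.51 (adjusted p = 0.012, limma). Klk8 (neuropsin), a kallikrein of the granular layer, read 433 and 369.8 under water and 942, 2832 and 1520.0 under olive oil/acetone. Its log2 difference was 1.99 ± 0.43 (adjusted p = 0.0227, limma). In all 3 genes replicate 2 was the highest treated library and the groups did not overlap.

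The other 6 kallikreins did not pass the threshold but also had positive differences, so 9 of 9 were positive, against 50.5% of all genes. The median over the 9 was 1.57 on the log2 scale, against 0.009 over all genes. Klk7 read 2373 and 1498 under water and 4117, 13849 and 7377 under olive oil/acetone (log2 difference of group means 1.99 ± 0.73, adjusted p = 0.0845, limma). Klk10 read 323 and 321 against 476, 1389.5 and 889. Klk5, which starts the cascade and is held by Spink5, read 673 and 538 against 682, 2271 and 997. None of these 3 overlapped between the groups, although the lowest treated Klk5 value lay just above the higher water value. Klk11, at 1153 and 1162 under water and 1276, 1918 and 1159 under olive oil/acetone, did overlap. The 9 stayed positive with each library left out in turn, and with edgeR and DESeq2. Their median was 1.19 without knockout olive oil/acetone replicate 2 and 2.10 without knockout water replicate 1.

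Among the membrane proteases, Tmprss2 fell by 1.42 on the log2 scale (SE 0.33, adjusted p = 0.0274, limma). It read 164 and 167 under water and 65.2, 75.4 and 46.2 under olive oil/acetone, with no overlap. Matriptase (St14) read 4053 and 3102 against 2986, 3085 and 2517, and prostasin (Prss8) 759 and 624 against 507, 771 and 418. Their log2 differences were -0.31 ± 0.24 and -0.33 ± 0.31, and neither passed the test. Tmprss4 and Tmprss13, both well expressed, differed by 0.20 and -0.14. Tmprss7, a low gene, read 11.5 and 15.8 against 27.9, 99.7 and 61.3 (adjusted p = 0.0622, limma). Of the 9 kallikreins 3 were called (33.3%) and of the 7 Tmprss genes 1 (14.3%), against 13.4% of all genes.

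Serpinb3a, a mouse relative of the human squamous cell carcinoma antigens, was close to absent under water. In the knockout it rested on 4.41 and 8.52 normalised counts under water and on 75.5, 523 and 128 under olive oil/acetone. The log2 difference was 4.59 ± 0.83 (adjusted p = 0.0147, limma). With 791 reads against 12, the ratio of pooled reads corrected for depth was 41.1 (95% exact interval 23.4 to 80.0, counting error only). Its neighbour Serpinb3b read 176 and 193 against 213, 799 and 368 (log2 difference 1.10 ± 0.50, adjusted p = 0.146, limma). Coding sequences of Serpinb3a and Serpinb3b are 92.9% identical, and those of Serpinb3b and Serpinb3c 93.1%, so reads could be split among them and their values are uncertain.

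Serpinb6c read 30.9 and 52.3 under water and 148, 335 and 125 under olive oil/acetone in the knockout (log2 difference 2.16 ± 0.46, adjusted p = 0.0219, limma). Its coding sequence is 86.9% identical to that of Serpinb6b, which read 213 and 223 against 120.0, 90.7 and 160.4 and was not called. Wfdc3 read 86.4 and 107 against 154, 199 and 232 (0.99 ± 0.28, adjusted p = 0.0449, limma). Wfdc17 rested on few reads, 2 under water and 49 under olive oil/acetone in all. It was at 0 and 2.43 against 19.7, 17.1 and 10.4. The ratio of pooled reads corrected for depth was 15.3, with a 95% exact interval of 4.01 to 130. None of the 4 called inhibitors overlapped between the groups.

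**Figure D2:**
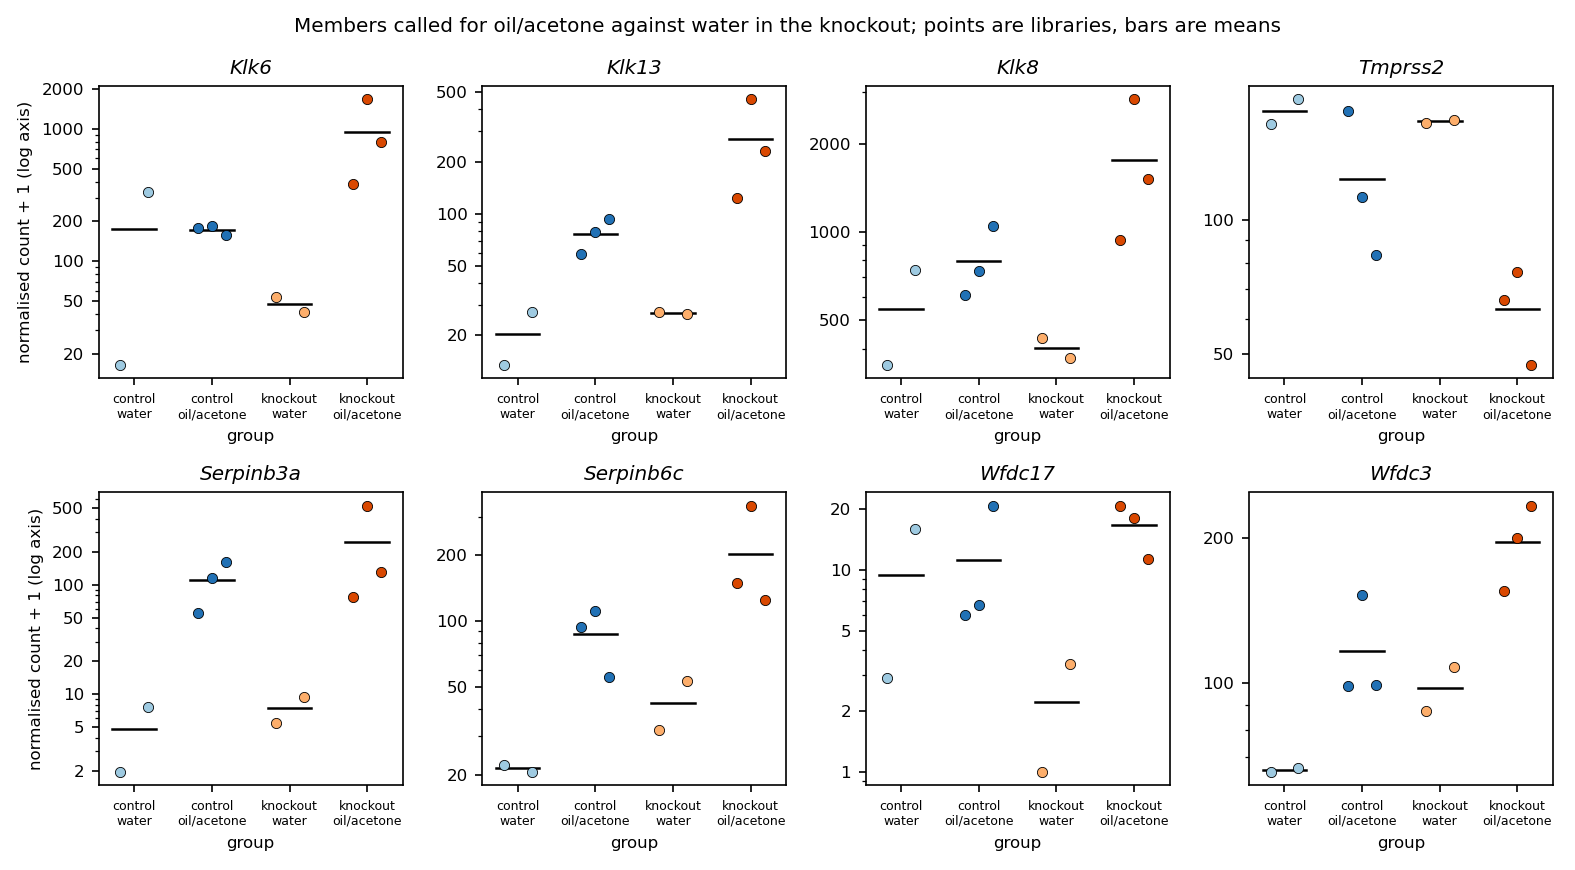
Normalised count + 1 on log axes for the 8 members called for treatment in the knockout, by group; points are libraries and bars group means. Klk6, Klk13 and Klk8 are highest in the knockout under olive oil/acetone, Tmprss2 is lowest there (46.2 to 75.4), and Serpinb3a is high under olive oil/acetone in both genotypes.

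The most abundant inhibitors did not pass the threshold. Serpinb2 read 125168 and 133985 in the knockout under water and 94394, 23496 and 24348 under olive oil/acetone. Every treated library was below both water libraries, yet the treated values were far apart (log2 difference -1.78 ± 0.60, adjusted p = 0.069, limma). Spink5 read 10633 and 9086 against 3899, 8484 and 3726 (-0.98 ± 0.35, adjusted p = 0.0769, limma), and Cst6 read 10386 and 11296 against 14643, 50177 and 30321 (1.38 ± 0.59, adjusted p = 0.129, limma). Cst6 and Spink5 therefore had opposite signs, without overlap in either gene. Slpi, which blocks neutrophil elastase, read 8.82 and 15.8 against 68.3, 183 and 34.0 (2.57 ± 0.86, adjusted p = 0.0675, limma). Across the 24 inhibitors 12 differences were positive and 12 negative, with a median of 0.08, against 13 positive of 18 and a median of 0.64 for the proteases.

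Libraries did not overlap between treatments in the knockout for 19 members that were higher and 9 that were lower. Over all genes these shares were 28.8% and 29.2%. Proteases gave 9 higher and 2 lower (St14 and Tmprss2), and inhibitors 10 higher and 7 lower. The 7 were Serpinb2, Serpinb6b, Serpinb7, Serpinb8, Serpinb9, Spink2 and Spink5. Marker sums of other cells differed between the same libraries. Neutrophil markers (2 of 5 listed) summed to 9.70 and 9.73 under water and 46.6 to 638 under olive oil/acetone. S100a8 alone gave 34.1, 619 and 142 of the treated sums. The other, Csf3r, overlapped, at 4.41 and 4.87 under water and 12.4, 18.9 and 3.77 under olive oil/acetone. Red cell markers (5 of 5) summed to 1176 to 2544 and 14407 to 27549. Endothelial sums (66.2 to 180 and 271 to 392) and mast cell sums (141 to 160 and 209 to 280) were also higher. Outer root sheath sums (72869 to 85156 and 43561 to 46853) and skeletal muscle sums (142 to 168 and 82.1 to 135) were lower. Sums of basal, sebocyte, T cell, Langerhans cell, fibroblast and melanocyte markers overlapped. No listed marker of these types was at 0 in all libraries of a group, and their part in the members' levels was not tested.

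The calls in the knockout were lost when its water group was cut to 1 library, although the differences stayed close in size. No member was called without knockout water replicate 1 or without replicate 2, when 0.0565% and 0.213% of all genes were called. Klk13 then differed by 3.15 and 3.10, Klk6 by 4.28 and 3.89 and Klk8 by 2.10 and 1.88 on the log2 scale. Klk13, Serpinb3a and Spink5 were called without knockout olive oil/acetone replicate 2 (2.66% of all genes), and Klk13, Serpinb3a and Serpinb6c without its replicate 3 (1.5%). When control olive oil/acetone replicate 2 was left out, 4 were called (5.26% of all genes), although that library enters only through the shared estimate of the spread. Without either control water library 14 members were called, with 19.7% of all genes in each case. DESeq2 called 15 members, with 22.6% of all genes, and edgeR 7 (all but Wfdc17), with 12.1%. With the 2 libraries high in hair markers left out, 8 members were called with 6.46% of all genes: Klk13, Klk6, Klk7, Klk8, Serpinb3a, Serpinb6c, Spink5 and Tmprss2.

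In controls, no member passed the threshold for olive oil/acetone against water, and only 0.0627% of all genes (10 genes) were called. At an unadjusted p under 0.05 there were 10 members, against 12.9% of all genes. Serpinb3a read 0.961 and 6.56 under water and 53.8, 113 and 158 under olive oil/acetone. Its log2 difference of 4.70 ± 0.83 (adjusted p = 0.0854, limma) was of the size seen in the knockout. With 316 reads against 8, the ratio of pooled reads corrected for depth was 28.2 (95% exact interval 14.1 to 65.9). Serpinb3b read 50.9 and 54.3 against 148, 281 and 383 (2.24 ± 0.50, adjusted p = 0.158, limma). Serpinb6c read 21.1 and 19.7 against 93.6, 111 and 54.9 (1.97 ± 0.46, adjusted p = 0.172, limma). All 3 serpins were higher in every treated library. DESeq2, which called 2.29% of all genes here, called these 3 and Klk13, and edgeR called no member, with 0.0439%.

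Kallikreins in controls depended on which water library was read. Klk13 read 12.5 and 26.2 under water and 57.8, 77.4 and 92.3 under olive oil/acetone, with no overlap (log2 difference 1.98 ± 0.51, adjusted p = 0.201, limma). Klk7 read 703 and 5824 under water, on either side of its treated values of 3529, 2949 and 4069. Klk6 behaved alike, with 15.4 and 333 around 177, 184 and 156. All 9 kallikrein differences were positive in controls (median 0.71), against 50.1% of all genes, but 5 of 9 were positive without control water replicate 1 (median 0.03) and 8 of 9 without replicate 2 (median 1.52). By edgeR and DESeq2, 8 of 9 were positive. Replicate 2 was the control water library with the hair marker sum of 11537, and the part of hair follicle cells in its kallikrein levels was not tested. Without both hair-high libraries, Klk6 and Serpinb3a were called in controls, with 0.208% of all genes.

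Treatment without overlap in controls was seen in 13 members, all higher, against 12.2% of all genes higher and 12% lower. They were Klk11, Klk13, Tmprss4 and Tmprss11f among the proteases and Serpinb3a, Serpinb3b, Serpinb5, Serpinb6a, Serpinb6c, Serpinb7, Serpinb8, Wfdc3 and Wfdc5 among the inhibitors. Tmprss4, a transmembrane protease, read 1067 and 1223 under water and 1511, 2089 and 3142 under olive oil/acetone (log2 difference of group means 0.91 ± 0.34, adjusted p = 0.310, limma). Wfdc5 read 27.9 and 61.8 against 97.6, 113 and 208 (1.64 ± 0.55, adjusted p = 0.271, limma). The sum over 8 markers of spinous and granular cells was also higher under olive oil/acetone. It was 159023 and 210344 in control water libraries and 268960 to 409230 under olive oil/acetone. In the knockout it was 232394 and 251771 against 305892 to 619274. Single markers were not alike. Krt1, Lor and Flg did not overlap between treatments in either genotype. Ivl, Sbsn and Krtdap overlapped in both genotypes, and Krt10 and Flg2 in the knockout. The part of these markers in the differences was not tested.

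**Figure D3:**
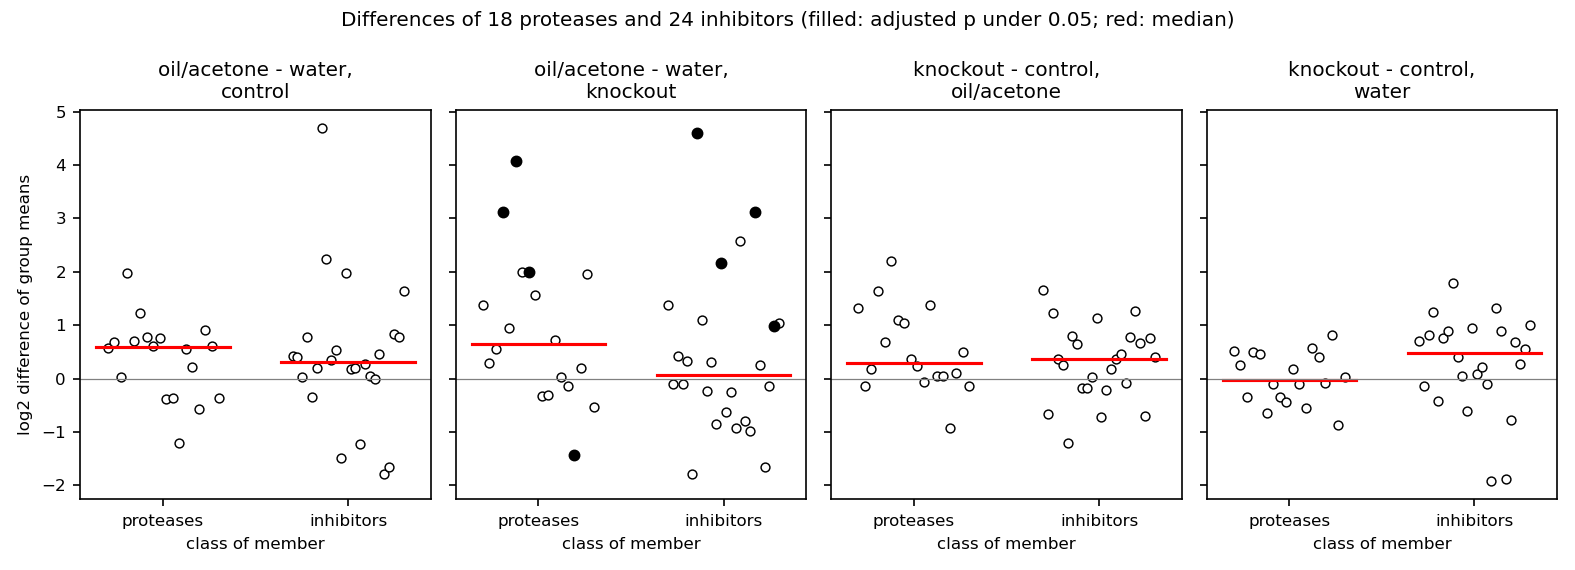
Log2 differences of group means for 18 proteases and 24 inhibitors in 4 comparisons; each point is a gene, filled points have an adjusted p under 0.05 and red lines are medians. Filled points appear for treatment in the knockout only (8 genes), and the medians there are 0.64 for proteases and 0.08 for inhibitors.

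Between genotypes under olive oil/acetone no member was called, and 0% of all genes were. At an unadjusted p under 0.05 there were 11 members, against 12% of all genes, and edgeR called none. DESeq2 called Cst6, Klk13 and Serpinb11, with 1.17% of all genes. Klk6 was at 177, 184 and 156 in controls and at 381, 1673 and 794 in knockouts, with no overlap (log2 difference 2.21 ± 0.88, adjusted p = 0.387, limma). Klk13, at 57.8, 77.4 and 92.3 against 123, 455 and 230.2, had a difference of 1.64 ± 0.45 (adjusted p = 0.314, limma). Cst6, at 8048, 8359 and 10572 against 14643, 50177 and 30321, had one of 1.66 ± 0.53 (adjusted p = 0.333, limma). In these 3 genes each knockout library was above every control library.

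Serpinb11, a serpin that neighbours Serpinb7 on chromosome 1, read 109.5, 179 and 109 in controls and 272, 346 and 292 in knockouts under olive oil/acetone. The spread within each group was small beside the log2 difference of 1.22 ± 0.26, but its adjusted p was 0.301 (limma). Under water it read 102 and 156 in controls and 200.2 and 249 in knockouts, again without overlap. Tmprss2 went the other way, at 174, 112 and 82.4 in controls and 65.2, 75.4 and 46.2 in knockouts (-0.93 ± 0.30, adjusted p = 0.333, limma). Serpinb7, mutated in a human palmoplantar keratoderma, read 1628, 1336 and 1362 against 1039, 1178 and 533 (-0.73 ± 0.26, adjusted p = 0.355, limma). Without overlap, 8 members were higher in the knockout and 3 lower, against 8.55% and 8.23% of all genes.

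Under water no member was called between genotypes either (0% of all genes). At an unadjusted p under 0.05 there were 4 members, all inhibitors, against 4.98% of all genes, and neither edgeR (0%) nor DESeq2 (0.0376%) called a member. Serpinb3b read 50.9 and 54.3 in controls and 176 and 193 in knockouts (log2 difference 1.79 ± 0.55, adjusted p = 0.963, limma). Serpinb12 read 210.5 and 367 against 691 and 633 (1.25 ± 0.44), and Spink5 read 4554 and 6141 against 10633 and 9086 (0.89 ± 0.38), with the same adjusted p of 0.963. In each gene both knockout libraries were above both controls. Without overlap, 12 inhibitors were higher in the knockout and 1 lower (Serpinb1a), and 4 proteases were higher. Over all genes 16.9% were higher and 17.8% lower in this way. Median differences were 0.49 for the inhibitors and -0.02 for the proteases, and the gap of 0.51 became -0.02 without the 2 hair-high libraries.

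No member had a called interaction of genotype and treatment, which asks whether the treatment difference was unequal in the 2 genotypes (0% of all genes). At an unadjusted p under 0.05 there were 4 members, against 11.9% of all genes: Klk8, Serpinb2, Serpinb5 and Serpinb8. The interaction was 1.38 ± 0.61 for Klk8 (adjusted p = 0.415, limma) and -1.97 ± 0.85 for Serpinb2 (adjusted p = 0.407, limma). In controls Serpinb2 read 105743 and 55351 under water and 149479, 84829.7 and 52601 under olive oil/acetone, so the control groups overlapped where the knockout groups did not. Klk6 had the largest positive value among proteases, 2.86 ± 1.39 (adjusted p = 0.433, limma), and passed the threshold without control water replicate 1, when 0.452% of all genes did. The calls in the knockout are therefore not shown to differ from the control response.

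Normalised counts of the 9 kallikreins summed to 5222 and 4040.0 in the knockout under water and to 8347, 24994 and 13201 under olive oil/acetone. In controls the sums were 2435 and 9487 under water and 7147, 6596 and 8716 under olive oil/acetone. The ratio of Klk7 to its inhibitor Spink5, per kilobase of exon and chosen after the values were seen, was 0.563 and 0.416 in the knockout under water and 2.67, 4.12 and 5.0 under olive oil/acetone. In controls it was 0.390 and 2.39 under water and 1.24, 1.78 and 2.15 under olive oil/acetone. The 3 knockout olive oil/acetone libraries held the 3 highest ratios and lay 7.85-fold above the knockout under water and 2.27-fold above the control under olive oil/acetone. With single libraries left out, these differences ran from 2.75 to 3.23 and from 0.96 to 1.44 on the log2 scale. Neither difference passed a two-sided exact permutation test: p was 0.2 for treatment in the knockout and 0.1 for genotype under olive oil/acetone, each the smallest that so few libraries allow, and 0.4 after adjustment over 4 comparisons. For treatment in controls p was 0.8, and for genotype under water 1.

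Serpinb2 took the largest share of the summed normalised counts of the inhibitors in 8 of 10 libraries, and Cst6 in the other two. It made up 80.2% and 58.1% of the sum over the 24 inhibitors in control water libraries, 78.9%, 70.5% and 57.2% in control olive oil/acetone libraries, and 74.5% and 75.0% in the knockout under water. In the knockout under olive oil/acetone it made up 68.8%, 22.2% and 32.0%, so replicates 2 and 3 were below all other libraries. Replicate 2 also had the highest spinous and granular marker sum (619274). Basal markers summed to 821561, 481982 and 491020 in the same 3 libraries. Their part in the share was not tested.

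**Figure D4:**
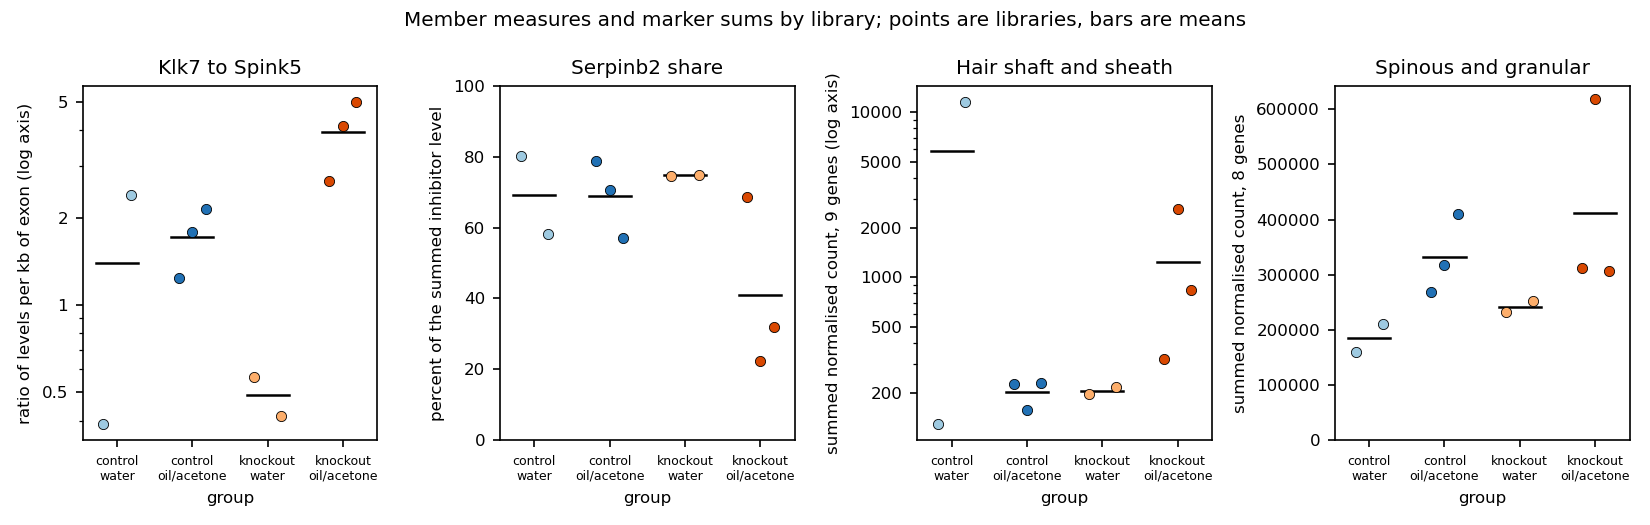
By group, from left: the Klk7 to Spink5 ratio per kilobase (log axis), the percent of the summed inhibitor counts from Serpinb2, and summed normalised counts of 9 hair markers (log axis) and of 8 spinous and granular markers; points are libraries and bars means. The knockout olive oil/acetone ratios (2.67 to 5.0) are the 3 highest, and the hair sum of 11537 belongs to 1 control water library.

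Several members are neighbours in the genome. On chromosome 7 (GRCm38) the 9 kallikreins run from Klk13 to Klk5 between bases 43712567 and 43851181. In the knockout the treatment difference along this row was 3.13 for Klk13 at one end and 0.94 for Klk5 at the other, with Klk6 next to Klk5 at 4.08, so it did not follow the order. On chromosome 1, 9 Serpinb genes lie between 106861173 and 107610484, from Serpinb5 to Serpinb8. Here Serpinb3a (4.59) lay in the same cluster as Serpinb2 (-1.78) and Serpinb7 (-0.63). The remaining 5 Serpinb genes lie on chromosome 13 between 32842092 and 34002794, where Serpinb6c was the called member.

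**Figure D5:**
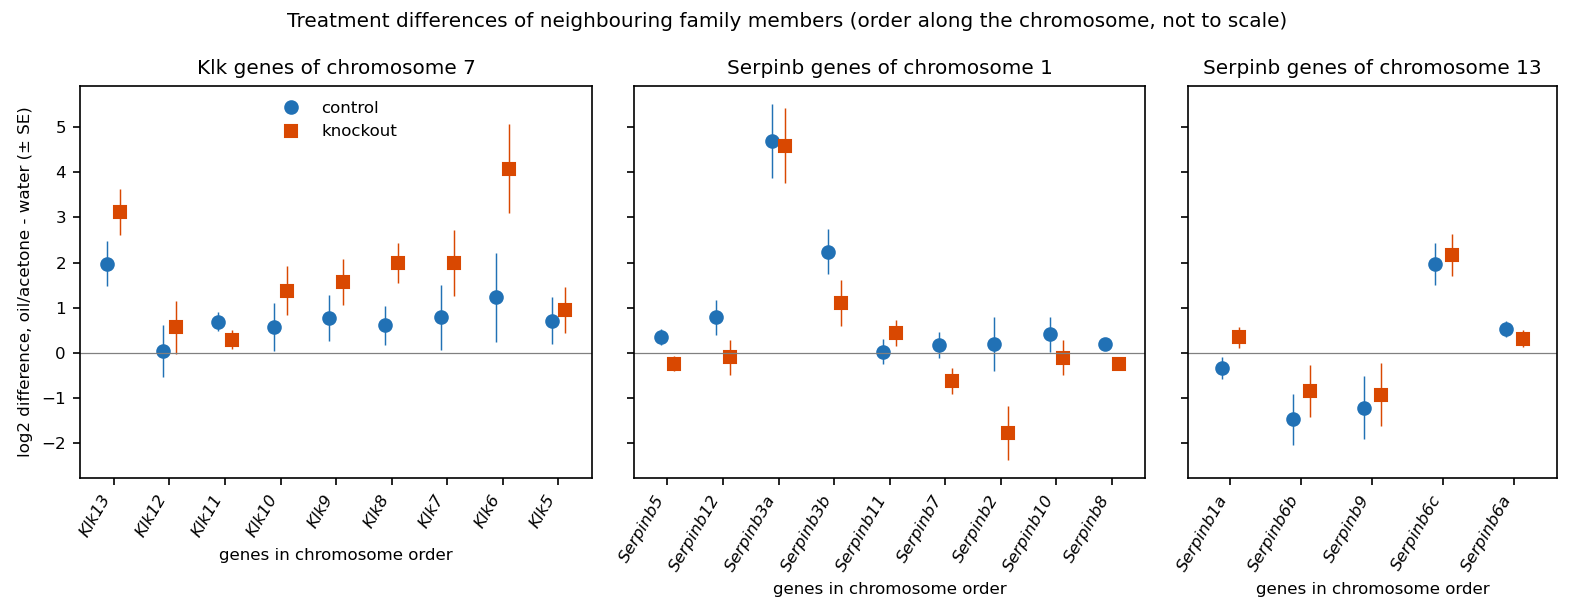
Treatment difference (log2, olive oil/acetone minus water, ± SE) of Klk genes on chromosome 7 and Serpinb genes on chromosomes 1 and 13, in chromosome order and not to scale; circles are controls and squares knockouts. Klk values are all positive, from 0.29 to 4.08 in the knockout, whereas neighbouring Serpinb genes lie on both sides of 0.

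Across the 10 libraries, the members whose log2 levels were most like those of Klk7 were Klk6 (Pearson r 0.97), Klk10 (0.94) and Klk5 (0.94). Those most like Serpinb2 were Tmprss2 (0.71), Serpinb7 (0.66) and Serpinb9 (0.58). The points share libraries, treatment and depth, and the values are descriptions. Exons of Serpinb2 and Serpinb10, and of Serpinb3b and Serpinb3c, overlap on the same strand, so their shared stretches cannot be told apart by strand. Klk8, Prss8, Tmprss4, Tmprss9, Tmprss13, Serpinb6a and Wfdc5 overlap a gene on the other strand, and reads there cannot be told apart where counting ignored strand.

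Other genes of the pathway were called for treatment in the knockout only, where 13.4% of all genes were called (6.74% higher and 6.69% lower). None had a called interaction of genotype and treatment (0% of all genes), so a difference from the control response is not shown. Of 15 other skin serine proteases tested, 2 rose and 1 fell. Plau, which encodes urokinase and is the target of Serpinb2, rose from 311 and 389 under water to 564, 953 and 727 (log2 difference 1.07 ± 0.23, adjusted p = 0.0228, limma). Prss27 (marapsin) rose by 3.85 and Prss23 fell by 1.95 on the log2 scale. Of 16 other inhibitors, 2 rose and 2 fell. Serpine2 (2.16) and Pi15 (1.59) were higher, and Timp3 (-1.63), which blocks metalloproteases, and Serpina3g (-0.97) were lower. In controls Plau was also higher under olive oil/acetone without overlap, and Timp3 and Serpina3g were lower without overlap. Over all genes 12.2% were higher and 12% lower in this way. Prss27, Prss23, Serpine2 and Pi15 overlapped between treatments in controls.

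Of 17 substrates and receptors of these proteases, 2 rose and 5 fell in the knockout under olive oil/acetone, against the same 6.74% and 6.69% of all genes. Flg, whose product filaggrin is processed during cornification, rose from 281 and 191 to 3735, 9497 and 1989 (log2 difference 4.15 ± 0.58, adjusted p = 0.00796, limma). Dsc1, a desmocollin of the upper layers, rose by 1.37. The protease-activated receptors F2rl1 (PAR2) and F2r (PAR1) fell by 1.60 and 1.66. F2rl1, which Klk5 and matriptase can activate, was at 7689 and 7154 under water and at 4278, 1874 and 1809 under olive oil/acetone. Cdh1 (-0.97) and Met (-1.27) also fell. Of 12 cysteine and aspartic proteases of cornification, Casp14 (2.17) and Blmh (1.79) rose and none fell. Both act on filaggrin, and the comparison called 13.4% of all genes. In controls none of these genes was called (0.0627% of all genes were). Flg, Dsc1, Casp14 and Blmh were nevertheless higher in every treated control library than in both control water libraries, as were 12.2% of all genes. Flg read 161 and 415 under water there and 3940, 2590 and 2075 under olive oil/acetone. F2rl1, F2r, Cdh1 and Met overlapped between treatments in controls.

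Members listed in only some libraries had few reads. Tmprss6 (matriptase-2) was listed in the 4 water libraries, at 6.69 and 4.69 in controls and 7.93 and 8.50 in knockouts. Tmprss11a and Serpinb6e were listed in the same 4 libraries, and Spink4 and Serpinb6d in 7. None of their values was above 19.8, and they entered no test.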

How the data were processed

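RNA-seq of 10 keratinocyte libraries was read from 1 deposited table per library. Per the submitters' processing notes, the authors used Trimmomatic 0.38, featureCounts 2.0.0, DESeq2 1.26.0 and GRCm38 (mm10). The aligner, annotation release and strand setting were not given in the sources used here, and per the labels libraries were made with the NEBNext Ultra RNA kit. The deposited values are a normalised signal: read counts divided by 1 factor per library, so that 1 read is worth 0.881 to 1.21. Dividing by that step gave whole reads for 100% of values in each library (tolerance 0.1 read). In control olive oil/acetone replicate 1 the step is so near to 1 that low values alone cannot show it, and its recovered reads are less certain. On recovered reads edgeR called 1930 genes and DESeq2 3610 in the knockout treatment comparison.

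Values were scaled again by median-of-ratios factors (0.995 to 1.004). Genes were kept if all 10 libraries listed them and 2 or more reached a value of 10 (15958 of 15987, all 42 members among them). limma 3.58.1 (R 4.3.3, lmFit, contrasts.fit, eBayes with trend, two-sided) was fitted to log2(value + 1) jointly for the 4 groups. A call needed an adjusted p under 0.05 (Benjamini-Hochberg, over all genes tested). Fold changes on this scale understate those of low genes. Alternatives were other scalings, pseudocounts and filters, a replicate block, single libraries left out, and edgeR 4.0.16 and DESeq2 1.42.0 on recovered reads. Leaving out both hair-high libraries was added after seeing the data. The fits were tested on simulated counts with the same spread setting for all genes and groups. That setting differs from these libraries, so it does not measure the error of their calls. Members, lists and marker genes were chosen with earlier results of these data known. Named members were those called in any comparison, up to 6 proteases and 6 inhibitors per comparison with the largest difference among those with a group mean of 50 or more and no overlap, and a list of epidermal members.

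The labels tie replicate numbers to no animal or batch. Deviations from the group mean did not correlate above 0.1 in every pair of same-numbered libraries, so the libraries were not used as pairs. Gene positions are from GENCODE and promoters from RefSeq. Members without a RefSeq entry were not searched, and no protein sequence was used. The values of 1 gene counted among the substrates and receptors are not reported here.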

Additional observations from a re-analysis of the deposited data

Results flagged for a closer look

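Serpinb8, a serpin that blocks furin, differed between treatments in opposite directions in the 2 genotypes, without overlap in either. In controls it read 2017 and 2222 under water and 2404, 2322 and 2568 under olive oil/acetone. In knockouts it read 2529 and 2412 against 2031, 2293 and 1941. The genotype differences under the 2 treatments were opposite too, since they rest on the same 10 libraries. The interaction was -0.44 ± 0.19 on the log2 scale and was not called (adjusted p = 0.404, limma).

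Serpinb7 likewise read 1329 and 1215 under water and 1628, 1336 and 1362 under olive oil/acetone in controls, and 1189.8 and 1518 against 1039, 1178 and 533 in knockouts. The groups were only narrowly apart, at 1336 against 1329 in controls and 1178 against 1189.8 in knockouts. The log2 treatment difference of Serpinb7 was 0.18 ± 0.29 in controls and -0.63 ± 0.29 in knockouts. Its interaction was -0.81 ± 0.41 (adjusted p = 0.443, limma).

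Tmprss6, which entered no comparison because 4 libraries list it, was higher in both knockout water libraries (lowest 7.93) than in both control water libraries (highest 6.69), on 5 to 9 reads per library.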

How the results depend on the processing

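In the knockout treatment comparison, 4 proteases and 4 inhibitors were called, with 13.4% of all genes. These became 2 and 2 without a trend (5.03% of all genes), 8 and 8 with the groups compared alone (24.9%), and 7 and 8 by DESeq2 (22.6%). In controls none were called (0.0627% of all genes), against 1 protease and 3 inhibitors by DESeq2 (2.29%) and 0 and 2 with a replicate block (0.363%). Between genotypes under olive oil/acetone, DESeq2 called 1 and 2 (1.17%). Leaving out single olive oil/acetone libraries gave 3 to 11 members in the knockout, with 1.5% to 17.8% of all genes. In controls this gave 0 to 3 members, with 0.0376% to 2.95%, and for the interaction 0, with 0%. Leaving out a water library leaves 1 in its group, and calls in the knockout were then lost or gained, as given above. Over all genes, DESeq2 called 352 (controls), 3610 (knockouts), 168, 6 and 169 (genotype under olive oil/acetone, under water, interaction), against 10, 2143, 0, 0 and 0. Equal library totals gave 1346 higher and 845 lower genes in the knockout (61.4% higher, against 50.2%), moved the median of all genes to 0.13 and called 9 members, Klk9 in addition.

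The median of the inhibitors minus that of the proteases was -0.28 in controls, -0.57 in knockouts, 0.06 between genotypes under olive oil/acetone and 0.51 under water. With single libraries left out these ran from -0.41 to 0.33, -1.10 to -0.11, -0.22 to 0.06 and 0.0011 to 0.64. Without the hair-high libraries the last was -0.019.

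The replicate numbers were shared by 13 pairs of libraries. Their deviations from the group means, not their levels, correlated above 0.1 in 6 pairs (-0.105 to 0.450). In this comparison 7 of 10 libraries correlated best with their own number. In a group of 2 libraries the deviations are mirror images, so the pairs are not independent. With the replicate block, 58 genes were called in controls and 2766 in knockouts, and 12 members in knockouts.

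A sign change was counted for a member only where its difference was larger than its SE. It occurred 15 times over 127 results. Without the hair-high libraries the interaction was -0.61 for Cst6, -0.59 for Klk10 and -0.76 for Klk7, and Serpinb12 between genotypes under olive oil/acetone was -0.0512. Klk6 in controls was -0.0342 by edgeR and -0.0146 by DESeq2. Leaving out single libraries took the interaction from -0.19 to 2.08 (Cst6), -0.23 to 1.84 (Klk10) and -0.32 to 2.73 (Klk7), Cst6 between genotypes under water from -0.43 to 1.84, and Serpinb12 between genotypes under olive oil/acetone from -0.0476 to 0.66. It took treatment in controls from -0.46 to 1.61 (Klk10), -0.10 to 1.52 (Klk5), -0.95 to 3.40 (Klk6) and -0.74 to 2.31 (Klk7). The causes were not tested. Low depth limits Wfdc17 and Serpinb3a under water.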
